A study of Mus musculus with 6 samples.

Results

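The 10 tubulin isotypes described here are the alpha-tubulin genes Tuba1a, Tuba1b, Tuba1c and Tuba4a and the beta-tubulin genes Tubb2a, Tubb2b, Tubb3, Tubb4a, Tubb5 and Tubb6. They were taken by gene name from a count table of 55367 genes, all 10 had a row in it, and all 10 had enough counts to be among the 16976 genes tested. RNA-seq was carried out on cortical cells of C57BL/6J mice taken at postnatal day 1 and cultured for 2 days, to ask how mRNA levels differ when the fragile X protein FMRP is missing. One genotype was wild type (WT) and the other was Fmr1-KO, in which the gene for FMRP is disrupted, with 3 libraries of each. Both genotypes were grown in the same way, in Neurobasal/B27 Plus medium on laminin and poly-L-lysine, after depletion of ACSA2+ astrocytes and of myelin with microbeads according to the methods of the study. The labels give no sex, litter or culture for a library and no name for the knockout allele. The study calls its samples independently derived, but the labels do not show how. The P values set the genotype difference against the spread between these libraries, and need not extend to other litters or cultures.

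Microtubules are hollow polymers of alpha- and beta-tubulin heterodimers, and they form the tracks for transport and the scaffold of axons and dendrites. Mammals encode each subunit in several genes, the isotypes, whose proteins differ mainly in an acidic C-terminal tail on the outer surface of the microtubule, where modifying enzymes and associated proteins bind. Tuba1a and Tubb2b are major isotypes of the developing brain and cause cortical malformations when mutated, Tubb3 is the isotype used to mark neurons, Tubb2a and Tubb4a are brain isotypes that rise as neurons mature, and Tubb5 and Tuba1b are expressed widely, in dividing cells as well.

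The ends of the coding sequences, which encode those tails, show how the beta isotypes differ there. The last 60 coding bases of 5 of them are given 5′ to 3′, stop codon included, from GENCODE M21 transcripts on GRCm38. Capitals mark bases that do not match Tubb2b after global alignment of the ends.
Tubb2a: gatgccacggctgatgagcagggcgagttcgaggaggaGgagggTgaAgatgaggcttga
Tubb2b: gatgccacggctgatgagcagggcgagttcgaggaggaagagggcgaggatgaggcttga
Tubb3: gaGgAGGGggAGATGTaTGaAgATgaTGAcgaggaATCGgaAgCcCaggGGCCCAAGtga
Tubb4a: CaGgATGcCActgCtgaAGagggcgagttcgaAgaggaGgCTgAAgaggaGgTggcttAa
Tubb5: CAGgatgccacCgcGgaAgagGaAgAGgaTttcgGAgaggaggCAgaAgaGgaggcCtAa

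Over these 60 bases, as aligned, Tubb2a differed from Tubb2b at 3 bases, whereas Tubb3 differed at 34, and Tubb4a and Tubb5 at 19 each. The stretch gatgccac that opens Tubb2b also occurs in Tubb4a and Tubb5. It was matched with a gap in Tubb5 but compared without a gap in Tubb4a, where it is partly in capitals. The coding sequence of Tubb3 is longer than that of Tubb2b, at 1353 and 1338 bases, and its end was compared without a gap. Bases set against each other there may not correspond. The counts of Tubb3, Tubb4a and Tubb5 therefore depend on the alignment and are not directly comparable. Over the whole coding sequence Tuba1a was 98.3% identical to Tuba1b and 97.1% to Tuba1c, Tuba1b was 97.9% identical to Tuba1c, and Tubb2a was 96.5% identical to Tubb2b. Tuba4a matched the other alpha isotypes at 84.7% to 85.2% of bases, and the remaining pairs of beta isotypes were 80.2% to 85.7% identical.

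These near-identities set how well a read of 100 bases can be assigned, because the counting options stated by the authors leave out reads that map to several places. All distinct stretches of 100 bases in the annotated transcripts of each gene were searched for in the transcripts of all other genes. No stretch of Tuba4a, Tubb3, Tubb4a, Tubb5 or Tubb6 occurred in a gene at another locus. In Tubb2b 26.0% of stretches were shared, mostly with Tubb2a, and in Tubb2a 36.9% were shared, mostly with Tubb2b. For Tuba1c 46.0% of stretches were shared, for Tuba1a 50.0% and for Tuba1b 61.7%. Tuba1a and Tuba1b also lie under Gm49450, an annotated read-through gene on the same strand that had 0 counts in the libraries, and its exons cover 26.2% of the exon bases of Tuba1a and 22.7% of those of Tuba1b. Taking both limits together, 28.3% of the stretches of Tuba1a and 34.8% of those of Tuba1b were assignable. The counts of Tuba1a, Tuba1b, Tuba1c, Tubb2a and Tubb2b are therefore uncertain, as levels and as a split between copies.

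**Figure D1:**
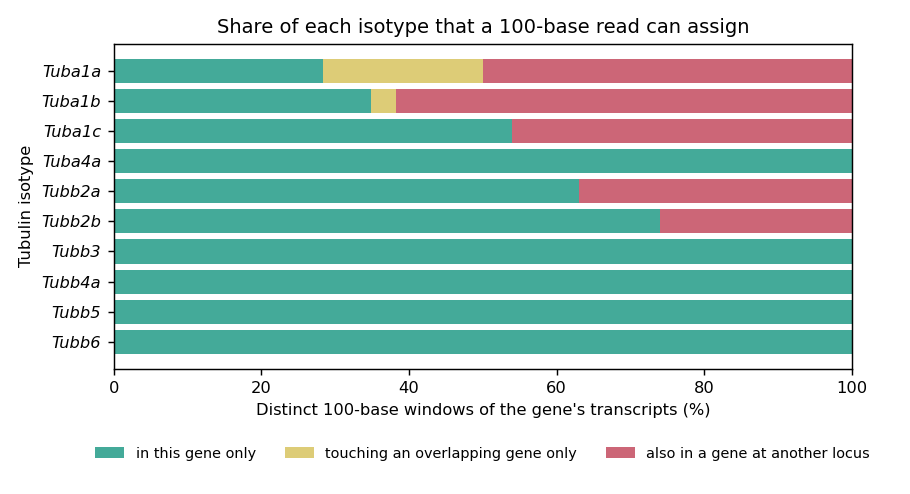
Horizontal bars give, for each of the 10 isotypes, the percentage of distinct 100-base stretches of its annotated transcripts that occur in that gene only, that touch an overlapping gene only, or that also occur in a gene at another locus. The assignable part ran from 28.3% in Tuba1a to 100% in Tuba4a, Tubb3, Tubb4a, Tubb5 and Tubb6.

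The libraries held 30348556 to 35126207 counts, with the highest total 1.16 times the lowest, and the spread of replicates exceeded sampling noise (chi-square divided by its degrees of freedom 2.91 for WT, 3.15 for Fmr1-KO). The targeted gene was examined first. Fmr1 was at 118.3, 112.2 and 109.6 CPM (counts scaled to a common library total with TMM factors) in WT replicates 1, 2 and 3, and at 54.2, 61.4 and 56.7 CPM in the Fmr1-KO libraries. No Fmr1-KO library reached the WT range. The log2 fold-change was -0.98 with an SE of 0.04 and an adjusted P of 2.25e-13, taken, like every adjusted P that follows, from the quasi-likelihood test of edgeR and adjusted by Benjamini-Hochberg over all tested genes. Fmr1 reads were thus still present in the knockout, at 50.6% of the WT mean.

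Tubulin mRNA was abundant in these cultures and was lower in Fmr1-KO relative to WT. The 10 isotypes together took 0.804% to 0.835% of all counts in WT and 0.669% to 0.749% in Fmr1-KO, ranges that did not overlap. Of the 10 isotypes, 6 were called lower at an adjusted P under 0.05 (Tuba1a, Tuba4a, Tubb2a, Tubb2b, Tubb3 and Tubb4a), 1 was called higher (Tuba1c) and 3 were not called (Tuba1b, Tubb5 and Tubb6). Over all tested genes 21.9% were called lower and 20.7% higher, so a call by itself was common here. The same 6 isotypes were lower with no overlap between the genotypes and the same 1 was higher with no overlap, against 26.3% and 25.4% of all tested genes. When a fold change above 1.2 was required, 3 isotypes were called lower (Tuba4a, Tubb2a and Tubb4a) and 0 higher by edgeR (also 0 at an unadjusted P under 0.05), against 7.89% and 5.2% of all tested genes. DESeq2 without that requirement called 6 lower and 1 higher. The median log2 fold-change was -0.22 for the isotypes and 0.01 for all tested genes. In bulk RNA, fewer cells of a type and less RNA per cell cannot be told apart.

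To set the isotypes side by side, CPM were divided by the exon length of each gene in kb, which gives RPKM, reads per kb of exon on the same library scale. In WT the order of these levels was Tuba1a (945.9 ± 22.8 RPKM, S.D., n = 3), Tubb2b (796.3 ± 21.8), Tubb5 (721.8 ± 16.9), Tubb3 (585.4 ± 14.0), Tubb2a (305.7 ± 9.31), Tubb4a (278.6 ± 4.71), Tuba1b (26.0 ± 0.913), Tubb6 (11.9 ± 1.24), Tuba4a (7.19 ± 0.411) and Tuba1c (4.15 ± 0.343). No neighbours in this order overlapped among the WT libraries. Tuba1a was thus the leading alpha-tubulin mRNA by a wide margin, while the beta-tubulin mRNA was spread over 5 genes. In Fmr1-KO the levels of Tubb5 (697.4 ± 33.3 RPKM) and Tubb2b (692.7 ± 32.2) overlapped, and Tuba1c (5.13 ± 0.354) lay above Tuba4a (3.79 ± 0.188), the reverse of WT.

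The length used decided part of this order. When only the assignable stretches were counted as length, Tuba1a was at 3531 and Tubb2b at 1111 CPM per 1000 assignable stretches in WT, Tuba1b was at 76.0, and Tuba1c (8.03) lay above Tuba4a (6.73) in WT as well. With the length of the transcript that carries the coding sequence compared, an alternative chosen after seeing the data, Tuba1a (945.9 RPKM) and Tubb5 (906.6) overlapped in WT. Under each of these lengths Tuba1a was far above Tuba1b, Tuba1c and Tuba4a.

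**Figure D2:**
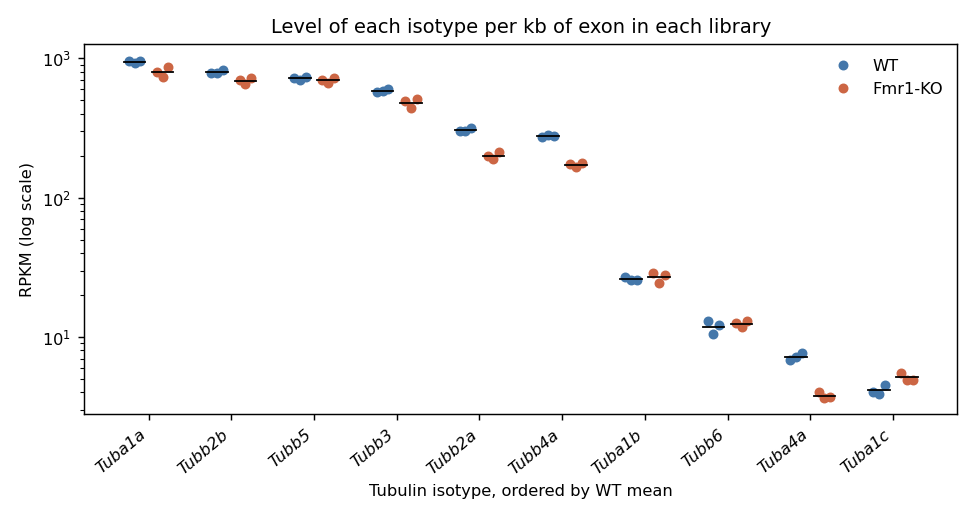
Points show the level of each tubulin isotype in each of the 3 WT and 3 Fmr1-KO libraries in RPKM by exon length, on a log axis, and bars mark the means. The isotypes are ordered by their WT mean, from 945.9 RPKM for Tuba1a to 4.15 RPKM for Tuba1c, and the Fmr1-KO points of Tubb2a, Tubb4a and Tuba4a stand farthest below their WT points.

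Among the alpha isotypes, Tuba1a, the main alpha-tubulin of young neurons, lies on chromosome 15 from 98949837 to 98953703 (GRCm38, minus strand). It was at 1731.5, 1658.1 and 1726.9 CPM in WT and at 1427.6, 1323.7 and 1557.2 CPM in Fmr1-KO. Every Fmr1-KO library lay below every WT library, although the Fmr1-KO libraries were more spread than those of WT. It fell by 0.25 on the log2 scale (SE 0.04; adjusted P 4.11e-05), which puts the Fmr1-KO mean at 84.2% of WT.

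Tuba4a, the alpha-tubulin known for lacking the encoded terminal tyrosine that most others carry, and best known from mature tissue, had the largest log2 fold-change of the 10. It lies on chromosome 1 from 75214228 to 75219865 (minus strand). Its level was 25.2, 26.4 and 28.2 CPM in WT and 14.8, 13.6 and 13.7 CPM in Fmr1-KO, so the highest Fmr1-KO library was far below the lowest WT library. The log2 fold-change was -0.92 (SE 0.06, 95% interval -1.06 to -0.79; adjusted P 1.49e-10), or 52.7% of the WT mean. Only 3.45% of tested genes had a larger absolute log2 fold-change. All of its stretches were assignable, so near-identical copies do not bear on this value.

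Tuba1c and Tuba1b, neighbours of Tuba1a on chromosome 15 (from 99029891 to 99038110, plus strand, and from 98931425 to 98934565, minus strand), did not follow it. Tuba1c was at 9.24, 8.86 and 10.4 CPM in WT and at 12.7, 11.3 and 11.2 CPM in Fmr1-KO, with no overlap. The difference was 0.31 on the log2 scale (SE 0.08; adjusted P 0.00442). It was the only isotype called higher. Tuba1b, the widely expressed alpha-tubulin, was at 50.7, 47.7 and 47.8 CPM in WT and at 54.0, 45.8 and 52.1 CPM in Fmr1-KO. The genotypes overlapped, and its log2 fold-change was 0.06 (95% interval -0.05 to 0.16; adjusted P 0.404). Without Fmr1-KO replicate 2 it was 0.12 and passed the threshold (adjusted P 0.0377). As counted, Tuba1a reads were 34.2 to 36.2 times those of Tuba1b in the WT libraries and 26.5 to 29.9 times in the Fmr1-KO libraries, so the balance between this near-identical pair moved toward Tuba1b.

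Among the beta isotypes, Tubb4a and Tubb2a fell most. Tubb4a, a brain isotype that is also abundant in oligodendrocytes, lies on chromosome 17 from 57080066 to 57087782 (minus strand). It was at 609.6, 630.5 and 621.7 CPM in WT and at 388.4, 370.2 and 393.0 CPM in Fmr1-KO. Within each genotype the libraries lay close together and the gap between the genotypes was many times their spread. It fell by 0.69 on the log2 scale (SE 0.03; adjusted P 1.88e-13), to 61.9% of the WT mean.

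Tubb2a, an isotype that accompanies neurite growth and maturation, lies on chromosome 13 from 34074274 to 34078007 (minus strand). Its level was 481.9, 485.3 and 509.4 CPM in WT and 318.8, 304.4 and 341.0 CPM in Fmr1-KO. Again no Fmr1-KO library reached the WT range, and the log2 fold-change was -0.61 (SE 0.04; adjusted P 1.88e-11). Tubb2b, its near-identical neighbour from 34126748 to 34130466 on the same strand, was at 1786.7, 1810.8 and 1882.8 CPM in WT and at 1600.3, 1510.4 and 1656.7 CPM in Fmr1-KO. The groups did not overlap here either, but the difference was smaller, with a log2 fold-change of -0.20 (SE 0.03; adjusted P 3.63e-05). Within a library, the count ratio of Tubb2a to Tubb2b was 0.268 to 0.271 in WT and 0.199 to 0.206 in Fmr1-KO. The ratio was nearly constant within a genotype and separate between genotypes. Reads shared by these paralogs are left out in every library alike, so a steady ratio does not show that reads were given to the right copy.

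Tubb3, the neuronal isotype, lies on chromosome 8 from 123411424 to 123422015 (plus strand). It was at 1066.4, 1095.5 and 1118.6 CPM in WT and at 916.9, 824.7 and 956.3 CPM in Fmr1-KO. All Fmr1-KO libraries were below the WT range, with Fmr1-KO replicate 2 lowest. The log2 fold-change was -0.28 (SE 0.04; adjusted P 5.56e-06), or 82.2% of the WT mean.

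Tubb5, the widely expressed beta-tubulin on chromosome 17 from 35833921 to 35838306 (minus strand), had the most reads of the isotypes and was not called. It was at 2407.2, 2342.8 and 2454.5 CPM in WT and at 2342.3, 2200.1 and 2418.7 CPM in Fmr1-KO. The ranges overlapped. Its log2 fold-change was -0.05, with a 95% interval from -0.12 to 0.02 (adjusted P 0.234), an interval that lies above the estimates of the 4 beta isotypes called lower. The count ratio of Tubb4a to Tubb5 was 0.253 to 0.269 in WT and 0.1625 to 0.168 in Fmr1-KO, and that of Tubb3 to Tubb5 was 0.443 to 0.468 in WT and 0.375 to 0.395 in Fmr1-KO, without overlap in either case. These within-library ratios do not depend on the scaling of the libraries.

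Tubb6, a beta isotype found mostly outside neurons, was low in both genotypes. It was at 31.5, 25.6 and 29.6 CPM in WT and at 30.4, 28.7 and 31.7 CPM in Fmr1-KO, and the Fmr1-KO range lay within that of WT but for its highest library. The log2 fold-change was 0.07 (95% interval -0.07 to 0.20; adjusted P 0.441), and it turned to -0.01 without WT replicate 2.

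**Figure D3:**
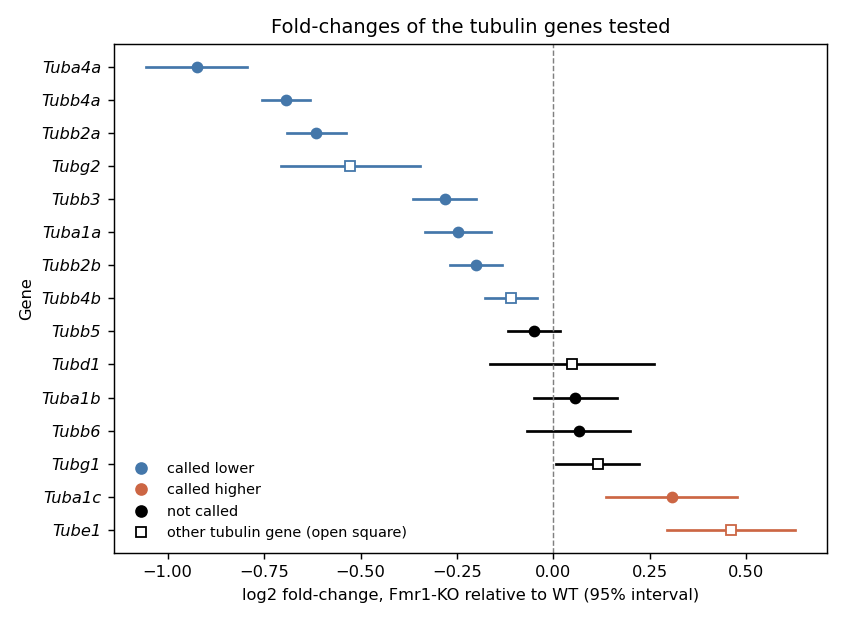
Points give the log2 fold-change of Fmr1-KO relative to WT for each tubulin gene tested, with the 95% interval of the edgeR fit. Filled circles are the isotypes and open squares other tubulin genes, blue was called lower, orange higher and black not called, and the intervals of Tuba4a, Tubb4a and Tubb2a lie wholly below those of Tubb3, Tuba1a and Tubb2b.

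Fmr1-KO replicate 2 was the lowest of the Fmr1-KO libraries for 9 of the 10 isotypes. It also had the lowest total count, and the part of depth in these values was not tested. Leaving it out brought the log2 fold-change of Tuba1a to -0.19, of Tubb3 to -0.22 and of Tubb2b to -0.17, and all 6 lower isotypes were still called.

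Summed per exon length, alpha-tubulin mRNA fell from 983.2 ± 23.6 to 832.5 ± 66.5 RPKM and beta-tubulin mRNA from 2699.7 ± 57.1 to 2255.9 ± 118.5 RPKM (S.D., n = 3 per genotype), to 84.7% and 83.6% of WT. No Fmr1-KO library overlapped the WT range for either sum. The ratio of the alpha to the beta sum was 0.364 ± 0.00972 in WT and 0.369 ± 0.0109 in Fmr1-KO, and here the genotypes overlapped. That ratio rests on the length used: by assignable stretches it was 1.12 ± 0.0314 in WT and 1.15 ± 0.035 in Fmr1-KO, again overlapping. The sums are described without a test.

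The makeup of the beta-tubulin mRNA differed between the genotypes. Tubb4a made up 10.3% ± 0.245 of the sum of the 6 beta isotypes in WT and 7.64% ± 0.171 in Fmr1-KO, and Tubb2a 11.3% ± 0.104 and 8.85% ± 0.139 (S.D., n = 3). Tubb5 rose as a share from 26.7% ± 0.445 to 30.9% ± 0.149 and Tubb2b from 29.5% ± 0.198 to 30.7% ± 0.196, each without overlap. Since shares add up to a constant, a larger share does not mean a higher level, and Tubb2b itself was called lower. The share of Tubb3 was 21.7% ± 0.229 in WT and 21.3% ± 0.504 in Fmr1-KO and overlapped. Tubb6 took 0.440% ± 0.0468 in WT and 0.551% ± 0.00223 in Fmr1-KO. Among the alpha isotypes Tuba1a held 96.2% of the sum in WT and 95.7% in Fmr1-KO, Tuba1b 2.64% and 3.25%, Tuba4a 0.732% and 0.457%, and Tuba1c 0.422% and 0.619%.

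**Figure D4:**
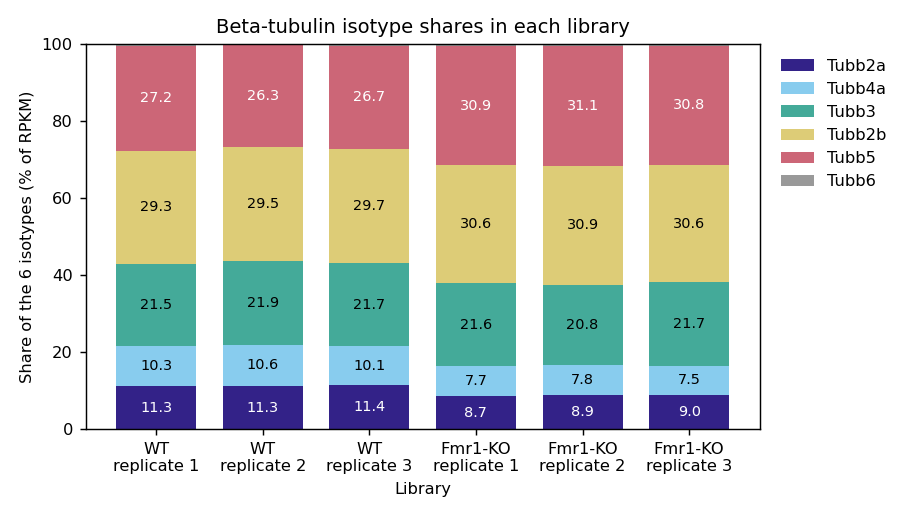
Stacked bars give, for each of the 6 libraries, the percentage of the summed RPKM of the 6 beta isotypes that each one takes. Tubb2a and Tubb4a are narrower in all 3 Fmr1-KO libraries than in all 3 WT libraries and Tubb5 is wider, while Tubb3 is nearly level and Tubb6 is too thin to see.

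Of 10 further tubulin genes in the table, 5 were tested. Tubb4b, a widely expressed beta-tubulin, was at 270.3, 253.95 and 266.8 CPM in WT and at 248.2, 235.4 and 249.2 CPM in Fmr1-KO, a small difference without overlap (log2 fold-change -0.11, adjusted P 0.0098), and its call was lost without WT replicate 1 (adjusted P 0.0653). Of the gamma-tubulins, which seed new microtubules, Tubg2 fell from 10.6 ± 0.177 to 7.36 ± 0.812 CPM (log2 fold-change -0.53, adjusted P 3.87e-05), while Tubg1, the form used by dividing cells, was not called (log2 fold-change 0.11, adjusted P 0.0799). Tubg1 passed as higher with library totals alone (adjusted P 0.0295) and without Fmr1-KO replicate 2 (adjusted P 0.0344). Tube1, the centriolar epsilon-tubulin, rose from 7.67 ± 0.358 to 10.6 ± 0.472 CPM (log2 fold-change 0.46, adjusted P 7.71e-05), and Tubd1, the delta-tubulin, had 0.05 (adjusted P 0.748). Tuba3a, Tuba3b, Tuba8, Tubal3 and Tubb1 had too few counts to be tested, and Tuba3b had 0 in the libraries.

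New tubulin chains are folded by prefoldin and the CCT chaperonin and paired into dimers by the cofactors TBCA to TBCE. Of 21 such genes, 9 were called lower and 2 higher, against 21.9% and 20.7% of all tested genes, with a median log2 fold-change of -0.07. With a minimum fold change of 1.2, 0 were lower and 0 higher by edgeR (0 and 0 at an unadjusted P under 0.05 as well). Over all tested genes that minimum left 7.89% lower and 5.2% higher. The 9 were all the CCT subunits listed (Tcp1, Cct2, Cct3, Cct4, Cct5, Cct6a, Cct7 and Cct8) and Tbcb, and the 2 were Tbce and Tbcel. The largest differences in the list were small, at -0.23 for Cct6a (adjusted P 1.22e-06) and -0.16 for Tbcb (adjusted P 0.00237). These counts moved with the scaling and with single libraries: there were 7 lower and 3 higher with upper-quartile normalization, and library totals alone gave 5 lower and 4 higher. Without WT replicate 2 or Fmr1-KO replicate 2, 1 gene was higher.

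The level of tubulin mRNA is itself controlled by free tubulin, through TTC5, which reads the first residues of the nascent chain, and SCAPER, which brings in the CCR4-NOT deadenylase. Of the 12 genes of that pathway, 0 were called lower by edgeR (0 at an unadjusted P under 0.05 and 0 by DESeq2) and 4 higher, all of them CCR4-NOT subunits (Cnot1, Cnot2, Cnot3 and Cnot6), with a median log2 fold-change of 0.06, against 20.7% higher over all tested genes. With a minimum fold change of 1.2, 0 were higher by edgeR (0 at an unadjusted P under 0.05), against 5.2% of all tested genes. Cnot6, a deadenylase, had the largest (0.24, adjusted P 9.66e-07), followed by Cnot3 (0.14, adjusted P 0.00662). Ttc5 (0.08, adjusted P 0.116) and Scaper (-0.03, adjusted P 0.641) were not called. Without WT replicate 2 or without Fmr1-KO replicate 2, 2 genes were called higher.

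Of 24 genes for enzymes that modify tubulin and for their partner subunits, 5 were called lower and 5 higher. These shares were near those of all tested genes (21.9% and 20.7%), and the median was 0.00. With a minimum fold change of 1.2, 2 were lower and 0 higher by edgeR (3 and 2 at an unadjusted P under 0.05). Over all tested genes the edgeR shares at that minimum were 7.89% lower and 5.2% higher. Agtpbp1, which trims glutamates from the tails, fell from 128.5 ± 1.95 to 86.8 ± 1.93 CPM (log2 fold-change -0.57, adjusted P 1.73e-11), and the deacetylase Sirt2 had -0.52 (adjusted P 6.43e-11). Ttl, which restores the terminal tyrosine, and Vash1, which removes it, were also lower, at -0.26 and -0.33. The number called higher was 3 without WT replicate 2, Fmr1-KO replicate 1 or Fmr1-KO replicate 3, and 2 without Fmr1-KO replicate 2 or under DESeq2.

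Genes of microtubule nucleation, the gamma-tubulin ring and the augmin complex, were called higher in 13 of 19 cases and lower in 1, Tubg2, against 20.7% and 21.9% of all tested genes, with a median of 0.18. With a minimum fold change of 1.2, 3 were higher and 1 lower, against 5.2% and 7.89% of all tested genes. Haus4, an augmin subunit, rose from 9.56 ± 0.926 to 14.1 ± 0.107 CPM (log2 fold-change 0.56, adjusted P 4.62e-06), and Cdk5rap2, which activates the ring at centrosomes, had 0.37 (adjusted P 3.29e-08). Of 13 stathmins and severing or depolymerizing proteins tested, 5 were lower and 4 higher, against 21.9% and 20.7% of all tested genes. Library totals alone gave 4 lower and 6 higher. A minimum fold change of 1.2 left 2 lower and 3 higher, against 7.89% and 5.2% of all tested genes. Stmn2, a stathmin of growing axons, fell from 590.6 ± 0.816 to 375.4 ± 17.1 CPM (log2 fold-change -0.65, adjusted P 9.64e-13), while Kif2c, a mitotic depolymerase, had 0.56 (adjusted P 3.97e-08). Of 10 plus-end proteins, 3 were lower and 2 higher, close to the 21.9% and 20.7% of all tested genes. With a minimum fold change of 1.2 there were 0 and 0 by edgeR (0 and 0 at an unadjusted P under 0.05). The shares of all tested genes were then 7.89% and 5.2%. Mapre2 and Clip2 had the largest differences there, -0.28 (adjusted P 9.85e-08) and -0.24 (adjusted P 2.42e-06). The number lower among plus-end genes was 2 without Fmr1-KO replicate 3, WT replicate 1 or WT replicate 2.

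**Figure D5:**
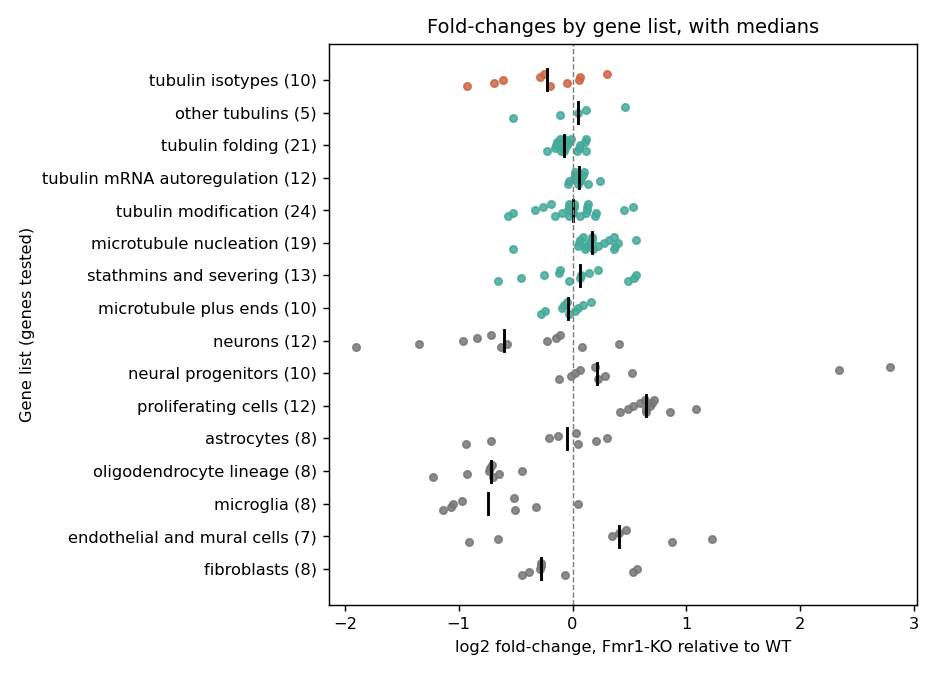
Each point is the log2 fold-change of a tested gene, Fmr1-KO relative to WT, in the list named at the left with the number of genes tested, and black bars are medians. Tubulin isotypes are orange, other microtubule lists green and cell type markers gray, and the medians shown run from -0.74 for microglia to 0.65 for proliferating cells, with the isotypes at -0.22. Erythroid cells, with 2 genes tested, are not drawn.

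Markers of several cell types differed between the genotypes beside the isotypes. The counts for each list, here and in the next paragraph, stand against 21.9% of all tested genes called lower and 20.7% higher. The labels call the cells cortical neurons, and all 12 neuron markers were expressed. Of these, 10 were lower and 2 higher (Elavl4 and Dcx), with sums of 3907 to 4084 CPM in WT and 3447 to 3589 CPM in Fmr1-KO and a median log2 fold-change of -0.60. The neurofilament genes Nefl (-1.90, adjusted P 2.1e-15) and Nefm (-1.35, adjusted P 1.72e-13) changed most. Without Fmr1-KO replicate 3, WT replicate 1 or WT replicate 3, 1 neuron marker was higher. All 12 markers of proliferating cells were higher, with sums of 634.3 to 671.2 CPM in WT and 1072 to 1124 CPM in Fmr1-KO, and Mki67 (1.09, adjusted P 8.39e-08) and Top2a (0.86, adjusted P 1.85e-14) led. Of 10 progenitor markers 5 were higher and 0 lower by edgeR (0 at an unadjusted P under 0.05 and 0 by DESeq2), with sums of 2446 to 2470 and 2765 to 2845 CPM, and among those averaging 10 CPM or more Eomes (2.79, adjusted P 2.35e-15) and Pax6 (0.52, adjusted P 1.38e-10) differed most.

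All 8 oligodendrocyte lineage markers were lower, Mbp (-0.92, adjusted P 2.07e-13) and Olig2 (-0.74, adjusted P 1.11e-11) among them, with sums of 1884 to 2046 CPM in WT and 1075 to 1159 CPM in Fmr1-KO. Of 8 microglia markers 7 were lower, C1qb (-1.13, adjusted P 5.52e-12) and C1qa (-1.05, adjusted P 3.04e-11) among them, with sums of 173.4 to 191.1 and 100.3 to 112.5 CPM. Of 8 astrocyte markers 4 were lower, led by S100b (-0.94, adjusted P 4.76e-11) and Aqp4 (-0.72, adjusted P 1.83e-10), and 2 higher, with sums of 4871 to 5003 and 4252 to 4635 CPM, so astrocyte RNA was present despite the depletion. Of 7 endothelial and mural markers tested 2 were lower and 4 higher, with sums of 247.4 to 271.7 and 410.8 to 429.9 CPM, Kdr at 1.23 (adjusted P 1.7e-10) and Rgs5 at -0.91 (adjusted P 2.27e-10). Without WT replicate 1 the endothelial and mural counts were 1 lower and 3 higher. Of 8 fibroblast markers 5 were lower and 2 higher, Postn (0.57, adjusted P 3.56e-07) and Fn1 (0.53, adjusted P 4.14e-09), with sums of 685.6 to 763.6 and 695.8 to 737.4 CPM. Pdgfra (-0.45, adjusted P 1.45e-08) is in both the oligodendrocyte lineage and the fibroblast list and was counted as lower in each. Of 6 erythroid markers 2 were tested and both were lower by edgeR (0 by DESeq2), with sums of 1.90 to 2.46 and 1.11 to 1.52 CPM, and 1 was lower without WT replicate 1, WT replicate 3, Fmr1-KO replicate 2 or Fmr1-KO replicate 3. No marker was at 0 in all libraries. With a minimum fold change of 1.2, edgeR called 7 neuron markers lower and 1 higher, against 7.89% and 5.2% of all tested genes. Proliferating cells then had 0 lower and 12 higher, progenitors 0 and 3, oligodendrocyte lineage 8 and 0, and microglia 5 and 0. Astrocytes had 2 lower and 0 higher (1 higher at an unadjusted P under 0.05). Endothelial and mural cells had 1 and 3, fibroblasts 1 and 2, and erythroid cells 1 and 0. Except for fibroblasts, the sums of these lists did not overlap between the genotypes, and they were lower or higher in Fmr1-KO depending on the list. The part of these cell types in the isotype differences was not tested.

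For the neuronal isotype Tubb3 and the broad isotype Tubb5, the genes with the most similar profile over the 6 libraries were sought among the 10763 genes that averaged 10 CPM or more, by the distance between log2 CPM centered on each gene's mean. Nearest to Tubb3 were Map1lc3a (distance 0.0335), Rnf19b, B3galnt1, Kctd13 and Hcn4 (distance 0.0527), whose log2 fold-changes ran from -0.30 to -0.27. Nearest to Tubb5 were Slc25a25 (distance 0.0214), Tomm22, Tmem234, Slc39a3 and D430019H16Rik (distance 0.033), with log2 fold-changes from -0.07 to -0.04. The difference between the genotypes is part of this distance, so near genes have similar log2 fold-changes by construction. The libraries are the same for all genes and share their scaling, so these distances are descriptions.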

How the data were processed

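RNA was measured in 6 libraries, 3 WT and 3 Fmr1-KO, grouped by the labels. Values deposited by the authors are unnormalized counts for each gene name. By their methods, stranded single-end reads of 100 bases passed FastP, were mapped with STAR to GRCm38 and were counted over exons with featureCounts on the reverse strand, without the option that counts multi-mapping reads. The submitters' processing notes name STAR 2.7.6a and Subread 2.0.1. Strand-aware counting keeps antisense genes apart but does not resolve near-identical paralogs or isoforms, and single-locus counting lowers the counts of genes with copies.

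The counts were tested with edgeR 4.0.16 (R 4.3.3): filterByExpr, TMM scaling, glmQLFit and glmQLFTest, 2-sided, genotype as the only term, with Benjamini-Hochberg adjustment over 16976 genes and a call at 0.05. The SE was derived from the F statistic. The authors used DESeq2, which was run as an alternative (1.42.0), beside RLE and upper-quartile scaling, unscaled library totals, omission of the filter, a filter at means of 10 counts and 5 CPM, a minimum fold change of 1.2, a replicate block, leaving out each library, and other lengths and members for the sums. The test was tried on simulated counts first. Totals of 30348556 to 35126207 counts per library and a common biological coefficient of variation of 3.22% set the precision.

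GENCODE M21 (GRCm38) gave lengths, coordinates and the beta-tubulin sequences shown (those of other isotypes are not reported here), whereas the authors name M22 or M25. Of the tested gene names, 98.6% were in it. Stretches of 100 bases were searched for in annotated transcripts only, because no genome sequence was used here. Over all tested genes, same-numbered WT and Fmr1-KO libraries did not deviate together from their group means (correlations -0.0289, 0.0323 and -0.0147). Numbers were not taken as pairs. Those correlations include noise of genes with low counts and cannot exclude a shared litter or culture, which the labels do not name.

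The isotypes and gene lists were chosen with earlier results of these data known. Genes named are the isotypes, Fmr1, the tested other tubulins, the 2 genes of each list with the largest absolute log2 fold-change at a mean of at least 10 CPM, and the 5 nearest profiles of Tubb3 and Tubb5. Ttc5, Scaper, Ttl, Vash1, Pdgfra and those listed as called in the folding and autoregulation lists were named after their values were seen.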

Additional observations from a re-analysis of the deposited data

How the results depend on the processing

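Of 140 recomputed isotype fold-changes, 134 had the same sign and the same call. With a minimum fold change of 1.2, 4 lost their call (Tuba1a, Tuba1c, Tubb2b and Tubb3), which left 3 isotypes lower and 0 higher, and 1340 genes lower and 883 higher over the whole table, as a stricter test calls fewer genes. When 1 library was left out, the number of isotypes called higher ran from 1 to 2 (2 without Fmr1-KO replicate 2, where Tuba1b joined Tuba1c), and the log2 fold-change of Tubb6 ran from -0.0149 without WT replicate 2 to 0.132 without WT replicate 1; the cause was not tested. The 6 lower isotypes were called under the other 13 settings, library totals alone included, under which 3212 genes were lower and 4207 higher over the whole table. The alpha sum in Fmr1-KO ran from 81.2% to 87.99% of WT and the beta sum from 81.6% to 85.9% when 1 library was left out. With length in assignable stretches, the shift in share from WT to Fmr1-KO was -3.35 percentage points for Tubb2a, 1.87 for Tubb2b, -2.27 for Tubb4a and 3.73 for Tubb5.

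Whether same-numbered libraries share a litter or culture is not known. With a replicate block, 6 isotypes were lower and 1 higher, and 3694 genes were lower and 3488 higher over the whole table. Among 1010 other values, 946 were stable, 8 lost and 2 gained a call, 54 moved and 0 reversed. Depth limits the low isotypes most: Tuba1c had 293 to 412 counts per library. Isoforms and pre-mRNA are not separated in these counts.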
